A study of Mus musculus with 20 samples.

Results

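The phagocyte NADPH oxidase is described here through the 4 of its subunit genes that the arrays measured, Cybb, Cyba, Ncf1 and Ncf4. A probe set was a member where the array's probe-to-gene table gave it 1 of these symbols alone. This found 5 probe sets for 4 of the 8251 genes named in the series, with 1 probe set each for Cybb, Ncf1 and Ncf4 and a pair for Cyba. The Cyba probe set of lower signal carries an f suffix, which marks a probe set that can also bind related transcripts. All 5 lay above the signal floor on enough arrays to be tested. The genes lie on mouse chromosomes X (Cybb), 8 (Cyba), 5 (Ncf1) and 15 (Ncf4).

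The samples were total RNA of sorted cells of adult mice of the inbred strain C57BL/10SnJ, measured on 20 Affymetrix arrays. The 4 groups were the side population (SP) and the main population (MP) of skeletal muscle and the same populations of bone marrow, with 5 arrays each, and no treatment is named. The SP is the minor fraction that pumps out a DNA dye, and the MP is the rest, which retains it. The labels do not tell whether the 5 samples of a group are separate animals, pools or sorts, so p-values measure the spread between these arrays only, which may be technical. Array medians ran from 318.1 to 611.75 in deposited signal. Precision is limited by the 5 arrays per group.

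The oxidase makes superoxide in the membranes of neutrophils, monocytes, macrophages and eosinophils by passing electrons from NADPH to oxygen. Its membrane core, flavocytochrome b, pairs the electron-carrying chain encoded by Cybb (gp91phox) with the stabilising chain encoded by Cyba (p22phox), which other members of the NOX family also use. On activation the cytosolic proteins encoded by Ncf1 (p47phox, the organiser) and Ncf4 (p40phox, which binds a phosphoinositide of phagosome membranes) join it together with a Rac GTPase. In marrow the genes are known to be turned on as granulocytes and monocytes mature, and the marrow SP is known to be rich in blood stem cells.

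The upstream sequences are shown because the members shared nearly the same order of groups. They are the 250 bases before the start of transcription from RefSeq (GRCm38.p6), which held an entry for 3 of the 4 members. Each is printed 5′ to 3′ on the minus strand, the coding strand of all 3 genes, with motif matches in capitals. They lie at chr5:134229626-134229875 (Ncf1), chr8:122432941-122433190 (Cyba) and chrX:9469325-9469574 (Cybb).
Ncf1: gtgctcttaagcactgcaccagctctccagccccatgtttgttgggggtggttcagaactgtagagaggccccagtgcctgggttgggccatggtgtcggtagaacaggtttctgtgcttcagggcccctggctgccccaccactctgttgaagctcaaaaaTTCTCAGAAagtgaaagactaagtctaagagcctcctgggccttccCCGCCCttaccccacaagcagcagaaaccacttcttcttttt
Cyba: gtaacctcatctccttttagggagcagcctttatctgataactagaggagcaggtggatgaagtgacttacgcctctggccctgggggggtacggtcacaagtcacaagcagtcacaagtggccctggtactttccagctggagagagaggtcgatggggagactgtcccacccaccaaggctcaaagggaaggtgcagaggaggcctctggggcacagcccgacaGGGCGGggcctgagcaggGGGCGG
Cybb: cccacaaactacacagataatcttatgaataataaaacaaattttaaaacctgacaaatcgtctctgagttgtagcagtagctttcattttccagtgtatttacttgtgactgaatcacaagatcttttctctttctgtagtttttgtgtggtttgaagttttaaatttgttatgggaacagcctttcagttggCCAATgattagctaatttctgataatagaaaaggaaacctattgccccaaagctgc
Both strands were searched for GAGGAA (the purine box bound by PU.1), CCAAT, TTCNNNGAA (the GAS element of STAT factors), TATAAA and GGGCGG (the GC box of Sp1 factors), the last of which was added after the sequences were seen. No match overlapped another. Ncf1 held TTCNNNGAA with its first base 88 bases before the start and the GC box, read as CCGCCC, at 42. Cyba held the GC box at 24 and again at 6 bases before the start, and Cybb held CCAAT at 56. GAGGAA and TATAAA were not among the letters of these 3 windows. Of all 32851 promoters of this length in the table, 23.3% held GAGGAA, 33.8% CCAAT, 7.02% TTCNNNGAA, 12.4% TATAAA and 32.7% GGGCGG. In Cybb the purine box, read on the other strand as TTCCTC, began 10 bases after the start, in tttcatTTCCTCatcaga, and 6.02% of all windows of 50 bases after a start held it. The GC content was 34% for Cybb, lower than in all but 3.87% of the promoters, 54.4% for Ncf1 and 60% for Cyba, against a median of 52.4%. A match describes the letters only, and none of it was tested as a binding site.

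Signals below are quantile normalized, on a linear scale unless log2 is stated, and values under a floor of 104.77 (log2 6.71) were set to that floor before any mean, difference or test. Signals are given for replicates 1 to 5 in that order, rounded to whole units. Levels were compared between groups within a probe set and never between probe sets. Log2 changes of pairs of subunits were also set against each other, in the exact permutation tests below.

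Cybb had signals of 4608, 5971, 3373, 5616 and 5382 on the bone marrow MP arrays. On the bone marrow SP arrays it had 1481, 264, 509, 200 and 48. Every marrow MP array lay above every marrow SP array, and the 5th marrow SP array was under the floor. The muscle MP signals were 184, 160, 127, 120 and 149, and the muscle SP signals were 52, 153, 97, 109 and 45. The muscle groups overlapped, all muscle values lay near the floor, and 3 of the 5 muscle SP arrays were under it. Group means in log2 were 12.26 ± 0.33 (SD, n = 5) in marrow MP, 8.38 ± 1.45 in marrow SP, 7.19 ± 0.25 in muscle MP and 6.83 ± 0.24 in muscle SP.

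Cyba was read well above the floor on all 20 arrays by both of its probe sets. The brighter one had 32072, 28521, 33680, 34055 and 36983 in marrow MP and 21782, 19914, 19297, 8362 and 5546 in marrow SP. All 5 marrow MP arrays were higher than all 5 marrow SP arrays, among which the 4th and 5th were the lowest. Muscle MP arrays had 5756, 7431, 7995, 6506 and 7995, and muscle SP arrays had 4456, 7727, 10104, 4364 and 4419, with overlapping ranges. Its log2 means were 15.01 ± 0.14 (SD, n = 5) in marrow MP, 13.68 ± 0.89 in marrow SP, 12.79 ± 0.21 in muscle MP and 12.51 ± 0.57 in muscle SP. The probe set with the f suffix gave the same order of groups, at 13.89 ± 0.28, 12.25 ± 0.88, 11.15 ± 0.24 and 10.94 ± 0.56, and the pair correlated at r = 0.991 over the 20 arrays.

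Ncf1 had signals of 1377, 1556, 1081, 1314 and 1264 in marrow MP. In marrow SP it had 660, 345, 629, 38 and 35, so that the 4th and 5th arrays were under the floor and the other 3 above it. The muscle MP signals were 122, 42, 169, 131 and 39, and the muscle SP signals were 41, 137, 43, 144 and 105. Both muscle groups straddled the floor, each with 2 of 5 arrays under it. Log2 means were 10.35 ± 0.19 (SD, n = 5), 8.10 ± 1.32, 6.96 ± 0.28 and 6.88 ± 0.23 in marrow MP, marrow SP, muscle MP and muscle SP.

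Ncf4 was above the floor on all marrow arrays. It had 7853, 6811, 9366, 13102 and 8388 in marrow MP, and 5676, 3278, 6392, 2550 and 974 in marrow SP, each of these 5 above every muscle array. Muscle MP signals were 133, 65, 145, 155 and 49, and muscle SP signals were 21, 281, 230, 61 and 34. In muscle the 2nd and 3rd SP arrays were the highest of all 10, and 3 of 5 SP and 2 of 5 MP arrays were under the floor. Log2 means were 13.12 ± 0.36 (SD, n = 5) in marrow MP, 11.61 ± 1.09 in marrow SP, 7.22 ± 0.71 in muscle SP and 6.99 ± 0.26 in muscle MP.

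**Figure D1:**
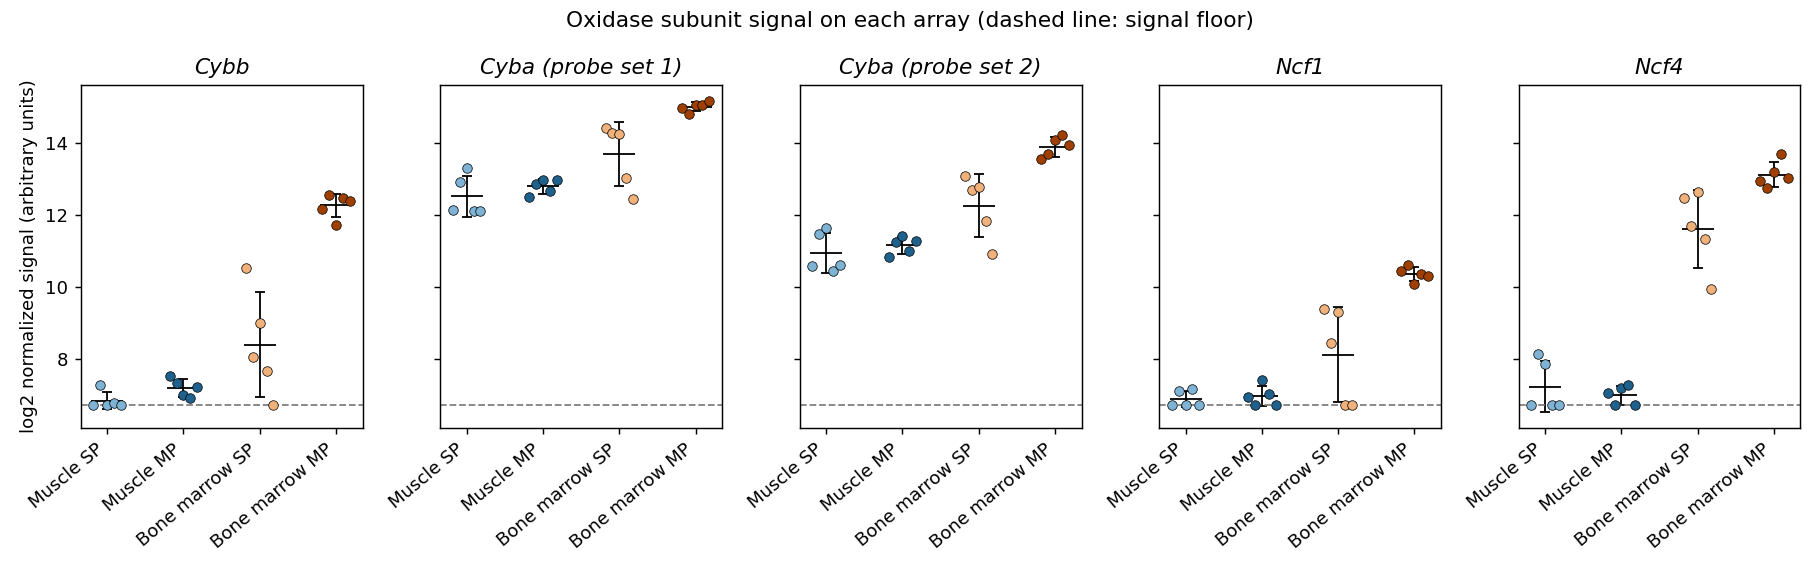
Log2 normalized signal of each member probe set on the 20 arrays by group, with points for arrays, bars for group means ± SD and the floor as a dashed line. Marrow MP arrays are the highest for every probe set, and the muscle arrays of Cybb, Ncf1 and Ncf4 lie at or near the floor of log2 6.71.

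The levels thus ran from marrow MP through marrow SP and muscle MP to muscle SP for Cybb, Cyba and Ncf1, while for Ncf4 the muscle groups stood in the reverse order. With a floor at the 10th percentile the muscle means of Ncf4 changed places, and no setting gave a call between them. Muscle MP and muscle SP did not pass the test. Muscle MP and marrow SP passed it, but for Cybb, both Cyba probe sets and Ncf1 their arrays overlapped. For Cybb, the brighter Cyba probe set and Ncf1 the difference was no larger than, or close to, the SD of the marrow SP arrays. For the other Cyba probe set that SD was 0.88. Muscle MP minus marrow SP, a comparison added after the values were seen, was -1.19 (Cybb, limma adjusted p = 0.0283), -0.89 (Cyba, 0.0262), -1.10 (its other probe set, 0.00800), -1.15 (Ncf1, 0.0214) and -4.62 (Ncf4, 1.5e-09) on the log2 scale. All 5 probe sets passed there, as did 25.1% of all probe sets in that direction.

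In bone marrow all members were lower in SP than in MP cells. Cybb, the electron-carrying chain, was 14.6-fold lower, a log2 difference of -3.87 ± 0.43 (SE, limma adjusted p = 5.0e-07). Ncf1, the organiser, was 4.76-fold lower (-2.25 ± 0.39, limma adjusted p = 0.000137). Ncf4 was 2.84-fold lower (-1.51 ± 0.39, limma adjusted p = 0.00498), and Cyba was 2.51-fold lower (-1.33 ± 0.32, limma adjusted p = 0.00259) by its brighter and 3.13-fold lower (-1.64 ± 0.32, limma adjusted p = 0.000437) by its other probe set. All 5 probe sets passed in this direction, as did 14.8% of the 10310 tested, while 15.4% were higher, and for all 5 the groups did not overlap, which held for 10.1% of all probe sets. In this bulk RNA fewer cells of a type and less RNA per cell cannot be told apart.

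These sizes were smaller without 2 of the marrow SP arrays. The 3' to 5' ratio of the GAPDH control probe sets, which is higher in degraded RNA, was highest on muscle SP 1, marrow SP 5 and marrow SP 4, at log2 4.79, 4.23 and 4.19. Without these 3 arrays the differences in marrow were -3.10 for Cybb, -1.34 for Ncf1, -0.68 for Cyba and -1.04 for its other probe set, and these passed (limma adjusted p = 4.9e-06, 0.000214, 0.0375 and 0.00467). That of Ncf4, -0.85, did not (limma adjusted p = 0.0554). With the ratio as a covariate Ncf4 was at -1.04 and missed the threshold as well (limma adjusted p = 0.0894), as it did with a floor at the 10th percentile (-1.51, limma adjusted p = 0.0648), where Ncf1 was at -2.86. Median scaling put the second Cyba probe set at -2.29. Over all arrays the ratio averaged 3.72 ± 0.60 (SD, n = 5) in marrow SP against 2.67 ± 0.72 in marrow MP (exact two-sided permutation p = 0.0397), and 3.83 ± 0.61 in muscle SP against 2.66 ± 0.62 in muscle MP (exact p = 0.0238). Adjusted over these 2 tests both gave 0.0397. The part of RNA quality in the differences beyond this was not tested.

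**Figure D2:**
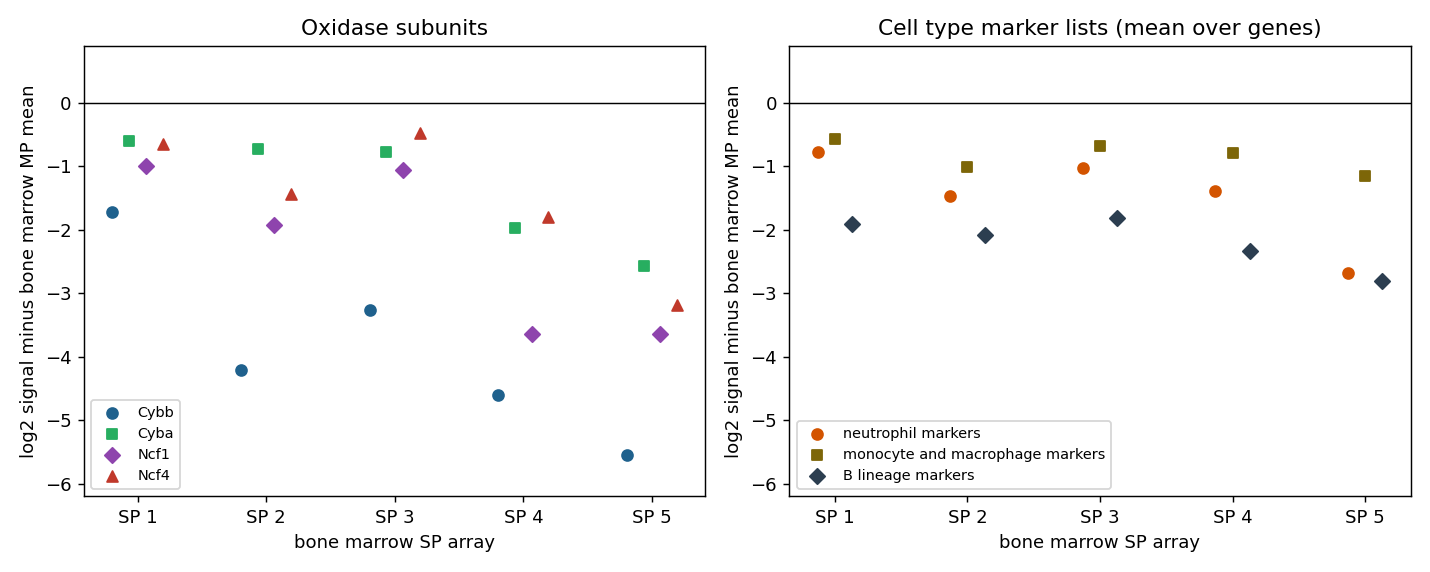
Log2 signal on each of the 5 bone marrow SP arrays minus the bone marrow MP mean, for the brightest probe set of each member (left) and for the mean of the neutrophil, monocyte and macrophage, and B lineage marker lists (right). Arrays 4 and 5 have the lowest signals of all 4 members and of the B lineage markers. The neutrophil markers are lowest on array 5 only, and the monocyte and macrophage markers are lowest on array 5.

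Part of the myeloid markers were lower in marrow SP as well. Of 15 neutrophil markers tested 7 were called lower and 0 higher. Of 16 monocyte and macrophage markers tested 6 were called lower and 0 higher. Of all probe sets 14.8% were called lower and 15.4% higher. B lineage markers were called lower in 14 of 14. The summed signal of 15 neutrophil markers of 19 listed ranged from 476014 to 592479 on marrow MP arrays and from 105939 to 309138 on marrow SP arrays. Per marrow SP array it was 309138, 218007, 299871, 232037 and 105939, so the 5th array was again the lowest, while the 4th was not set apart. The B lineage sums on the same arrays were 15751, 13348, 14859, 9362 and 6844, with the 4th and 5th lowest. The sum of 18 monocyte and macrophage markers of 20 ran from 130941 to 147511 in marrow MP and from 28147 to 81687 in marrow SP, with Marco and Aif1 at the floor in every group. Among the defining markers the granule protease Elane was at log2 10.72 ± 0.32 (SD, n = 5) against 9.74 ± 0.40, the receptor Csf1r at 11.63 ± 0.34 against 10.79 ± 0.34, and Adgre1, which encodes a macrophage surface antigen, at 9.53 ± 0.33 against 6.89 ± 0.40. Marrow SP arrays also held S100a8 at 15.17 ± 0.65, against 16.37 ± 0.14 in marrow MP, which did not pass (limma adjusted p = 0.167). The defining markers S100a9 and Ltf did not pass either (limma adjusted p = 0.194 and 0.0696), nor did Mpo, whose values are given below with the peroxidases. The part of these markers in the members' levels was not tested.

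In muscle no member passed the test between SP and MP cells. The log2 differences were -0.36 for Cybb (95% confidence interval -1.25 to 0.54), -0.28 for Cyba (-0.94 to 0.38), -0.08 for Ncf1 (-0.89 to 0.74) and 0.24 for Ncf4 (-0.57 to 1.05), with limma adjusted p between 0.663 and 0.951. None of the 5 probe sets passed in limma, and 0 of 5 had an unadjusted p under 0.05, while 11.7% of all probe sets passed, 5.1% higher and 6.64% lower in SP. For Cybb, Ncf1 and Ncf4 the floor bounds what could be seen, since 3 of 5 muscle SP arrays for Cybb, and part of both muscle groups for Ncf1 and Ncf4, lay under it. For Cyba, which was well above the floor, the interval of the brighter probe set leaves room for 0.52 to 1.30 times the MP level. Under some alternatives the sign changed for Cyba, Ncf1 and Ncf4, always without a call.

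Monocyte and macrophage markers were lower in muscle SP. Of 16 tested 10 were called lower and 0 higher, against 6.64% and 5.1% of all probe sets. The estimates of Cybb, Cyba and Ncf1 had the same sign without passing. Their sum was 28888 to 36672 on muscle MP arrays and 7004 to 17593 on muscle SP arrays, and Adgre1 was under the floor on all 5 SP arrays and at log2 8.79 ± 0.18 (SD, n = 5) in MP. The neutrophil sum ran from 2626 to 50725 in muscle SP and from 2933 to 11195 in muscle MP, with Ctsg and Cxcr2 at the floor throughout. Muscle SP arrays 2 and 3, which had the highest Ncf4 and Cyba signals of that group, had neutrophil sums of 50725 and 17092, against 18390, 2884 and 2626 on arrays 1, 4 and 5. The sums of the T and NK cell markers were 31023 and 55671 on arrays 2 and 3, the highest of that group. They were 19283, 4596 and 4879 on arrays 1, 4 and 5, so these arrays single out no cell type. The part of these cells in the muscle values was not tested.

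Between the tissues the members were lower in muscle in both populations. In MP cells the differences were largest for Ncf4, 70.0-fold (-6.13 ± 0.39, SE, limma adjusted p = 8.9e-12), and Cybb, 33.5-fold (-5.07 ± 0.43, limma adjusted p = 1.3e-09). Ncf1 was 10.5-fold lower (-3.40 ± 0.39, limma adjusted p = 1.8e-07), and Cyba 4.65-fold (-2.22 ± 0.32, limma adjusted p = 3.8e-06) or 6.70-fold (-2.74 ± 0.32, limma adjusted p = 2.2e-07) by its 2 probe sets. All 5 passed and did not overlap, against 25.6% of all probe sets that were called lower and 21.6% that were lower without overlap. Of all probe sets 20.9% were higher in muscle. In muscle MP 2 of 5 arrays of Ncf1 and of Ncf4 were set to the floor, which lowers their folds, and none of Cybb. With a floor at the 40th percentile the differences of Cybb, Ncf1 and Ncf4 were -4.26, -2.36 and -5.12.

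In SP cells Ncf4 was 20.9-fold lower in muscle (-4.38 ± 0.39, SE, limma adjusted p = 4.2e-09), with no overlap. The other members differed less: -1.55 ± 0.43 for Cybb, -1.17 ± 0.32 for Cyba, -1.31 ± 0.32 for its other probe set and -1.22 ± 0.39 for Ncf1 (limma adjusted p = 0.00614, 0.00501, 0.00228 and 0.0167), each with overlapping arrays. All 5 passed in this direction, as did 21.2% of all probe sets, with 17.1% higher in muscle. Non-overlap, which Ncf4 alone of the 4 genes showed, held for 11.9% of all probe sets. The call for Ncf1 was lost without marrow SP 1 (-0.92, limma adjusted p = 0.0614) or marrow SP 3 (-0.93, 0.0636), with a floor at the 10th percentile (-1.14, 0.249) and with a pseudocount (-0.94, 0.101). Cybb was at -1.02 without marrow SP 1 and at -0.72 with a floor at the 40th percentile, where it was not called (limma adjusted p = 0.0116 and 0.0872). In a fit of the SP groups alone Ncf1, Cybb and Cyba missed the threshold (limma adjusted p = 0.104, 0.0610 and 0.0546). Without the 3 arrays of highest GAPDH ratio Cybb, Ncf1 and Ncf4 were at -2.36, -2.14 and -4.98.

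**Figure D3:**
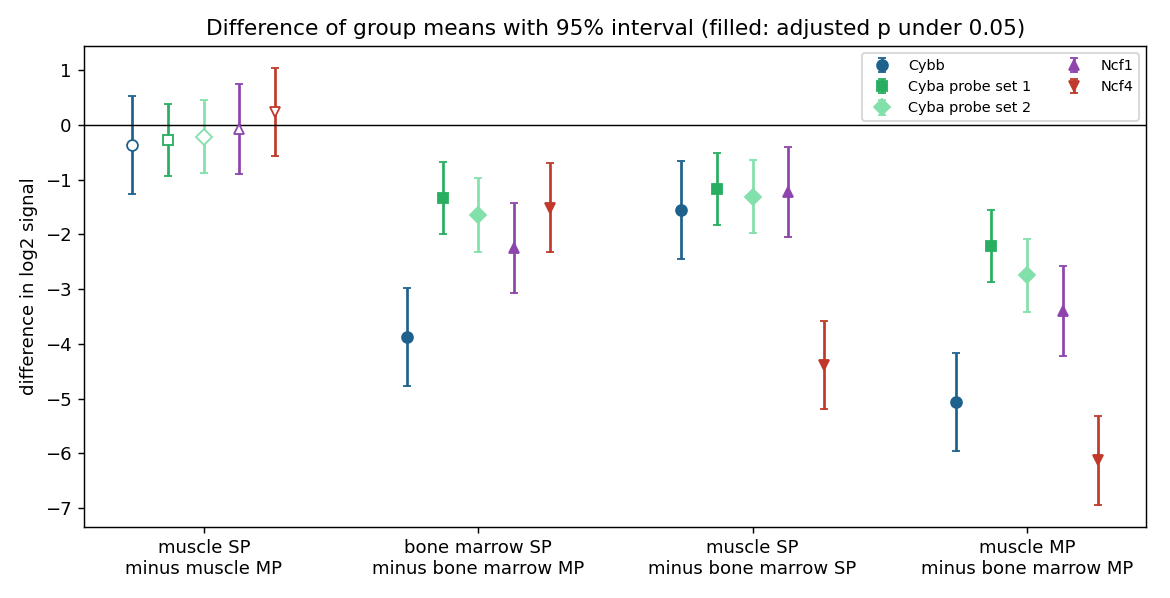
Log2 differences of each member probe set in the SP against MP and tissue comparisons, with points for estimates (filled where adjusted p was under 0.05) and bars for 95% confidence intervals. Muscle SP against MP intervals span 0, marrow intervals lie below it, and Ncf4 has the largest difference in both tissue comparisons, -4.38 and -6.13.

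The SP against MP difference itself was tested between the tissues. It was more negative in marrow by 3.51 for Cybb (limma adjusted p = 0.000282), 2.18 for Ncf1 (0.00802), 1.74 for Ncf4 (0.0299) and 1.43 for the second Cyba probe set (0.0308), on the log2 scale. The brighter Cyba probe set did not pass, at 1.05 (95% confidence interval 0.12 to 1.98, limma adjusted p = 0.114), but did at 1.48 after median scaling (limma adjusted p = 0.0130). So 4 of 5 probe sets were called in this direction, against 8.69% of all. In muscle Cybb, Ncf1 and Ncf4 were at or near the floor in both populations, which holds their muscle change near 0, so for these 3 the value largely restates the marrow change. The call for Ncf4 was lost without muscle SP 2 (1.52), muscle SP 3 (1.59), muscle MP 2 (1.67), muscle MP 5 (1.68), marrow SP 4 (1.68) or marrow MP 4 (1.60), with limma adjusted p between 0.0507 and 0.0604. That for the second Cyba probe set was lost without muscle SP 2 (1.30), muscle SP 3 (1.26), muscle MP 1 (1.35), muscle MP 4 (1.40), marrow SP 4 (1.33), marrow MP 3 (1.38) or marrow MP 4 (1.35), with limma adjusted p between 0.0519 and 0.0608. Cybb and Ncf1 kept their calls under every array left out in turn, and without the 3 arrays of highest GAPDH ratio they were at 2.77 and 1.31. Without those 3 arrays Ncf4 (1.22, limma adjusted p = 0.0619) and the second Cyba probe set (0.92, 0.0784) were not called. With a floor at the 10th percentile Ncf1 (2.81, 0.0740) and Ncf4 (1.28, 0.359) were not called, nor was Ncf4 with a pseudocount (1.42, 0.104), and without the filter neither was Ncf4 (0.0637) nor the second Cyba probe set (0.0588).

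The log2 changes read for the subunits were not equal. Cyba stands here by its brighter probe set only (-1.33 in marrow), while its other one fell further (-1.64). In marrow SP, 1 of 5 Cybb arrays and 2 of 5 Ncf1 arrays were set to the floor, which makes their falls smaller. Whether the probe sets respond alike to a change was not tested. In marrow the log2 change of Cybb minus that of Cyba was -2.54, minus that of Ncf4 -2.36 and minus that of Ncf1 -1.62 (exact two-sided permutation p = 0.00794 each, the smallest that 5 arrays against 5 allow, adjusted p = 0.0173 over 24 tests). Ncf1 fell further than Cyba by 0.92 (exact permutation, adjusted p = 0.0317), and the difference between Cyba and Ncf4, 0.18, did not pass (exact permutation, adjusted p = 0.544), nor did that between Ncf1 and Ncf4, -0.74 (exact permutation, adjusted p = 0.0952). The gap between Ncf1 and Cyba was not called without any 1 of the 5 marrow MP arrays (0.802 to 0.984, exact permutation, adjusted p 0.0635 to 0.0879) or on values with no further normalization (0.56, adjusted p = 0.254). The gap between Cybb and Ncf1 was not called with a floor at the 10th percentile (-1.24, adjusted p = 0.103), and the cause was not tested.

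The same test was made between the tissues, where the floor limits it. Cybb, Ncf1 and Ncf4 lay at or near the floor in muscle, so their difference can be little larger than the height of the marrow mean above the floor, and inequality among these 3 then largely restates how far each stood above the floor in marrow. In SP cells the Ncf4 difference between muscle and marrow exceeded those of Cybb, Cyba and Ncf1 by 2.83, 3.21 and 3.16 (exact permutation, adjusted p = 0.0173 each), while pairs among those 3 did not pass (exact permutation, adjusted p 0.487 to 0.937). In MP cells all 6 pairs passed, 5 at an adjusted p of 0.0173 and Cybb against Ncf4 at 1.06 with 0.0440 (exact permutation). That last pair was not called when any of muscle MP 1, 2 or 5 or marrow MP 1, 3, 4 or 5 was left out (0.91 to 1.12, adjusted p up to 0.0794). In muscle SP against MP none of the 6 pairs passed (exact permutation, adjusted p 0.102 to 0.836).

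The members' levels were correlated across arrays, most plainly in marrow SP. Over 20 arrays Pearson's r between different genes, brightest probe sets, was 0.862 (Cybb and Ncf4) to 0.967 (Cybb and Ncf1), which the group means largely set. With each group's mean subtracted it was 0.653 (Cybb and Cyba) to 0.845 (Cyba and Ncf4). Of 10309 other probe sets, the within-group r with a member had a median between -0.01 and 0.01 and a 95th percentile between 0.541 (Ncf1) and 0.621 (Cyba). Within the marrow SP group, Cyba, Ncf1 and Ncf4 lay on the same side of their means on all 5 arrays, and each pair with Cybb did on 4. In muscle SP the counts were 3 (Cyba and Ncf1, Ncf1 and Ncf4) to 5 (Cyba and Ncf4). In muscle MP the pairs with Cybb did so on 3 (Cyba), 0 (Ncf1) and 1 (Ncf4) of 5. Cyba did with Ncf1 on 2 and with Ncf4 on 1, while Ncf1 and Ncf4 did on 4. In marrow MP the counts were 1 (Cyba and Ncf1) to 4 (Cyba and Ncf4), so in the MP groups the members did not move together throughout. The points share arrays, RNA quality and normalization, and the within-group r of the members with the GAPDH ratio was -0.216 (Cybb), -0.371 (Cyba), -0.365 (Ncf1) and -0.415 (Ncf4). The within-group r with the mean log2 signal of the neutrophil markers was 0.556, 0.656, 0.356 and 0.699 in the same order. With the B lineage markers it was 0.534, 0.680, 0.465 and 0.670, so the table singles out no cell type.

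The genes of the most similar pattern, by Pearson's r over the 20 arrays, were as follows. For Cybb they were Gsdme (0.987), which encodes a pore-forming gasdermin, Fam32a (0.981), the chemokine receptor Ccr1 (0.980) and Prg2 (0.977), which encodes the major basic protein of eosinophil granules. Those of Cyba were Plbd1 (0.971), a granule phospholipase, Rhog (0.962), a Rac-like GTPase, Taldo1 (0.958) and Fam32a (0.956). Ncf1 was closest to Ccr1 (0.971), Rogdi (0.968), Fam32a (0.966) and Gsdme (0.965). Ncf4 was closest to Arhgap9 (0.989), a GTPase-activating protein of blood cells, Chil1 (0.988), Wfdc21 (0.988) and Lcp1 (0.987), the actin-bundling protein of leukocytes. The mean of the 4 members was closest to Arg2 (0.987), Plbd1 (0.987), H2-Q10 (0.984) and Cln3 (0.983). These are descriptions that groups of unequal level dominate, and Gsdme and Prg2 were at the floor on every muscle array.

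Of 14 partners and relatives of the oxidase, 5 had a probe set of their own, Rac1, Rac2, Rap1a, Rap1b and Cybc1. Rac2, the GTPase of the oxidase in blood cells, was at log2 14.48 ± 0.44 (SD, n = 5) in marrow MP, 13.57 ± 0.85 in marrow SP, 9.54 ± 0.22 in muscle MP and 10.48 ± 0.64 in muscle SP. It fell in marrow SP against MP by 0.91 (limma adjusted p = 0.0457), the only partner called there, and was 0.95 higher in muscle SP without passing (limma adjusted p = 0.0753). Its SP against MP difference was lower in marrow than in muscle by 1.86 (limma adjusted p = 0.00837). The log2 difference of muscle minus marrow was -3.09 in SP and -4.95 in MP cells (limma adjusted p = 1.2e-07 and 3.1e-11). The marrow count of partners that fell was 0 to 2 with each array left out in turn and 0 with the GAPDH covariate.

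Rac1, the GTPase found in most cells, ran the other way between tissues. It was higher in muscle by 0.69 in SP and 0.89 in MP cells (limma adjusted p = 0.00171 and 0.000106), and it differed by -0.50 in muscle SP against MP (limma adjusted p = 0.0510) and -0.30 in marrow. Cybc1, the chaperone of flavocytochrome b, was lower in muscle, by -1.15 in SP and -1.26 in MP cells (limma adjusted p = 0.00204 and 0.000709) and differed by 0.01 and -0.10 between SP and MP cells of muscle and marrow (limma adjusted p = 0.998 and 0.855). Rap1a and Rap1b encode small GTPases that copurify with flavocytochrome b. Rap1b, read by a probe set that can cross-hybridise, was lower in muscle MP than in marrow MP (-1.15, limma adjusted p = 0.00304) and at -0.79 in marrow SP against MP (limma adjusted p = 0.0507). The brighter Rap1a probe set was called in no comparison, and the other was lower in marrow SP than MP (-0.89, limma adjusted p = 0.0170), so they disagree.

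Receptors that trigger the oxidase fell in marrow SP cells in 8 of 15 measured genes, and none rose, against 14.8% of all probe sets lower and 15.4% higher, with a list median of -0.94 beside 0.02 over all probe sets. The largest falls were Fpr2, a formyl peptide receptor (-2.66 ± 0.34, SE, limma adjusted p = 2.7e-06), Itgb2 and Itgam, the chains of complement receptor 3 (-2.35 ± 0.28 and -2.28 ± 0.16), and the lipopolysaccharide co-receptor Cd14 (-2.28 ± 0.26). In muscle SP cells 3 fell and 1 rose (6.64% and 5.1% of all probe sets), with a median of 0.06 beside 0.03. Cd14 (-1.16 ± 0.26, limma adjusted p = 0.00434), the complement receptor C3ar1 (-1.15 ± 0.23) and the inhibitory Fc receptor Fcgr2b (-1.07 ± 0.31) fell, and Tnfrsf1a, a TNF receptor, rose (1.06 ± 0.27, limma adjusted p = 0.0120). Without the 3 arrays of highest GAPDH ratio, 8 fell in marrow and 4 fell in muscle. With that ratio as a covariate 8 fell in marrow, while in muscle 2 fell and 0 rose.

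Of 17 kinases, lipid enzymes and GTPase regulators of assembly, 8 fell and 0 rose in marrow SP cells (median -0.56), against 14.8% and 15.4% of all probe sets. In muscle SP cells 1 fell and 1 rose, near the 6.64% and 5.1% of all probe sets. Btk fell by 2.04 ± 0.30, Fgr by 1.53 ± 0.22 and Prkcb by 1.51 ± 0.28 (SE, limma adjusted p = 2.1e-05, 1.0e-05 and 0.000233), a Tec kinase, a Src kinase and a protein kinase C that phosphorylates p47phox. Plcg2, a phospholipase C, fell by 0.87 ± 0.29 in marrow (limma adjusted p = 0.0265) and rose by 0.95 ± 0.29 in muscle (limma adjusted p = 0.0347), and its difference between tissues was 1.82 (limma adjusted p = 0.00301). Pla2g4a, the cytosolic phospholipase A, fell in muscle by 1.02 ± 0.29 (limma adjusted p = 0.0244). The marrow count was 5 without the 3 arrays of highest GAPDH ratio, and also 5 with that ratio as a covariate, without marrow MP 3 or without marrow MP 4.

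Of 13 transcription factors known at oxidase promoters, 3 were higher and 3 lower in marrow SP cells, counts near the 15.4% and 14.8% of all probe sets. Meis1, a factor of blood stem cells, rose 11.5-fold (3.53 ± 0.27, SE, limma adjusted p = 2.8e-09) by a probe set with an s suffix, which can cross-hybridise. Cebpd (-1.27 ± 0.30), Cebpb (-1.25 ± 0.25) and Cebpa (-0.66 ± 0.19), factors of myeloid differentiation, fell, and the coactivator Crebbp (0.95 ± 0.30) and Runx1 (0.91 ± 0.26) rose. Cebpa and Runx1 complete the counts and were named after their values were seen. Spi1, which encodes PU.1, was at -0.50 in marrow and 0.35 in muscle and passed in neither (limma adjusted p = 0.208 and 0.514); it falls outside the naming rule and was chosen after its values were seen. In muscle SP cells Irf8 (0.98 ± 0.28) and Irf1 (0.64 ± 0.19) rose (limma adjusted p = 0.0243 and 0.0321), 2 of 13 against 5.1% of all probe sets, and none fell. The number that rose was 0 to 3 with each array left out in turn, and 1 with the GAPDH ratio as a covariate.

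The list of NADPH supply also holds glucose transporters and hexokinases. Its genes fell in 7 and rose in 3 of 13 in marrow SP cells, against 14.8% and 15.4% of all probe sets, with a median of -1.03. The number that rose is near that share. Those that rose were Hk1 (1.26 ± 0.22, SE), Me1 (1.03 ± 0.30), which was at the floor in marrow MP, and Idh2 (1.00 ± 0.20). Hk1 and Me1 fall outside the naming rule and complete the count. The glucose transporters Slc2a3 (-2.46 ± 0.27, SE) and Slc2a1 (-2.02 ± 0.35) and the pentose phosphate enzymes Pgd (-1.61 ± 0.24) and Taldo1 (-1.35 ± 0.24) fell furthest (limma adjusted p = 3.7e-07, 0.000106, 2.1e-05 and 0.000193). Slc2a1, Slc2a3, Pgd and Taldo1 each differed between tissues in this change. In muscle SP cells the isocitrate dehydrogenase Idh2 (-1.04 ± 0.20, limma adjusted p = 0.00122) and the hexokinase Hk2 (-0.78 ± 0.23, limma adjusted p = 0.0322) fell (2 of 13, against 6.64% of all probe sets) and none rose, with 1 falling and 1 rising without the 3 arrays of highest GAPDH ratio.

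Enzymes that use or remove the products of the oxidase were mixed. In marrow SP cells 2 of 12 fell and 3 rose, counts near the 14.8% and 15.4% of all probe sets. The eosinophil peroxidase Epx fell by 3.43 ± 0.30 (SE, limma adjusted p = 2.0e-08) and Gpx3 by 1.07 ± 0.33 (limma adjusted p = 0.0171), while Prdx2 (1.66 ± 0.23, by a probe set that can cross-hybridise) and Prdx4 (1.26 ± 0.24), peroxiredoxins that reduce peroxide, and Sod1 (0.82 ± 0.20), named after its values were seen to complete the count, rose. No muscle array had Epx above the floor. In muscle SP cells Gpx3, the secreted glutathione peroxidase, fell by 1.85 ± 0.33 (limma adjusted p = 0.000642), 1 of 12 against 6.64% of all probe sets, and no other passed. The marrow falls numbered 1 without marrow SP 2, without marrow SP 5 or without the 3 arrays of highest GAPDH ratio. Mpo, which turns peroxide into hypochlorous acid in neutrophils, differed by -0.40 in marrow and 0.16 in muscle (limma adjusted p = 0.456 and 0.860). It was among the defining markers. Muscle counts of the lists, all of 3 or fewer, moved by up to 2 genes when single arrays were left out.

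**Figure D4:**
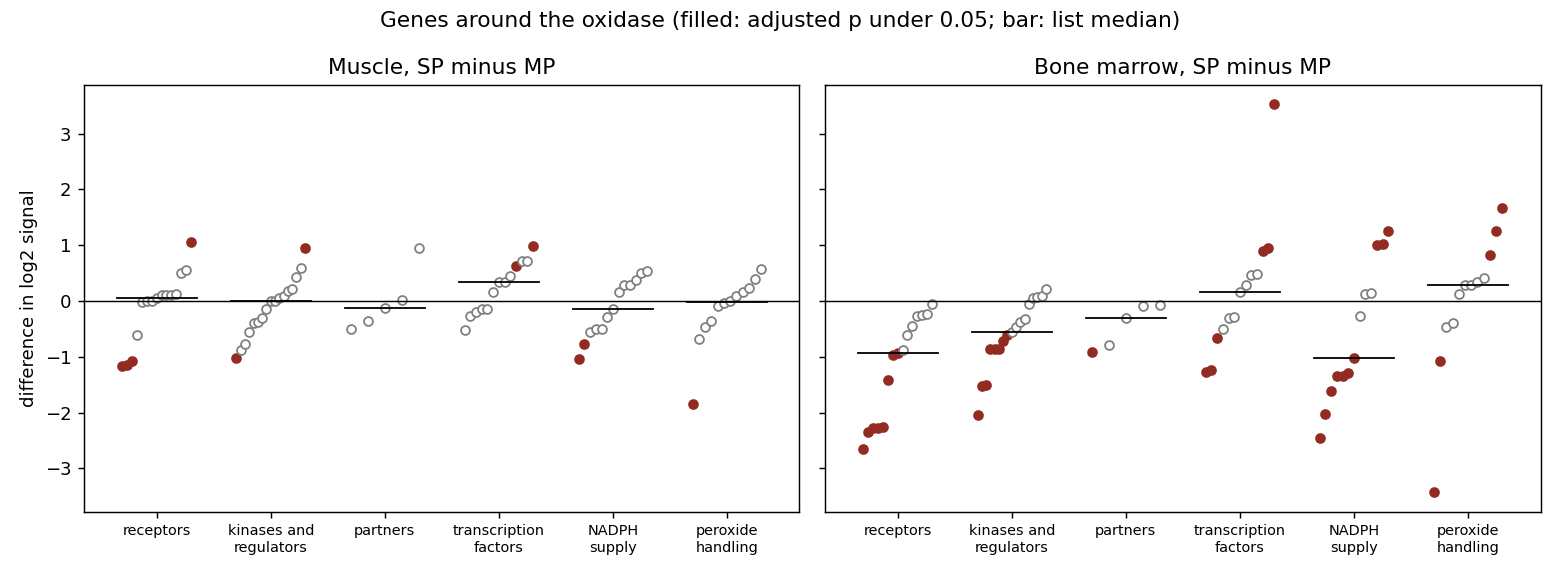
Log2 difference of SP against MP for each measured gene of the 6 pathway lists in muscle and bone marrow, with filled points for genes with an adjusted p under 0.05 a line at 0 and a bar at each list's median. In marrow 8 of 15 receptors and 8 of 17 kinases and regulators are called below 0, and in muscle 3 and 1.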

How the data were processed

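Total RNA of the 20 sorted samples was hybridised to arrays by the authors, who deposited an intensity value on a linear scale for each probe set and array, per the file headers and values. Every array had a 2%-trimmed mean of 1501, so the authors scaled them. How probes were summarised and background removed, and by which software, is not given in the sources used here. After leaving out 66 control probe sets, 12422 remained. Array log2 medians differed by 0.943, so values were quantile normalized, floored at the 25th percentile of all values, log2 transformed and kept where above the floor on at least 5 arrays (10310 probe sets). Quantile normalization removes overall differences in RNA content, and folds of dim genes are compressed by the floor.

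One limma model (version 3.58.1, R 4.3.3) held all 4 groups, and two-sided p-values were adjusted over the 10310 probe sets by the Benjamini-Hochberg method, with a threshold of 0.05. Unequal change of pairs of members was tested by exact permutation of arrays. The script was tested on simulated data. Plots were made in Python 3.11.15 (matplotlib 3.10.9). The members, gene lists, comparisons and alternatives were chosen with earlier results of these data known.

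Genes named were all member probe sets, all measured partners, up to 4 genes of largest change past the threshold per pathway list and SP against MP comparison, the 4 genes most correlated with each member, and defining cell type markers. Pathway list genes named outside this rule are marked where they occur. Marker lists beyond the myeloid ones (eosinophil and mast cell, B lineage, T and NK cell, blood stem and progenitor, endothelial, fibroblast, myogenic) are given in the closing section. Where a gene had several probe sets, that of highest mean signal stood for it in a list. Symbols came from the platform annotation, in which 10833 probe sets had a single gene symbol, 396 several and 1193 none. Alternatives were other normalizations, floors, a pseudocount of 64, filters, empirical Bayes options, array weights, fits restricted to a comparison's own groups, a block for the replicate number, the GAPDH ratio as a covariate or as a reason to leave out 3 arrays, and each array left out in turn.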

Additional observations from a re-analysis of the deposited data

Results flagged for a closer look

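Of 20 groups of 5 arrays checked for a distant array, 1 had one, and chance gives about 1 in 20. Cybb on muscle SP 2 was at log2 7.26, with a gap to the nearest array of 0.892 of the group's range, above the critical value of 0.71. It is set against a group in which 3 of 5 arrays lay at the floor.

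The SP against MP change differed between muscle and bone marrow, by the limma interaction test, for 26 of 39 probe sets checked. Those checked were the probe sets of the members and measured partners. To these were added the genes named from the other lists by the rule of up to 4 largest changes. Genes named outside that rule were not checked. Among them, Me1 was at -1.58 (limma adjusted p = 0.0109) and Hk1 at -0.89 (0.0548) in the same test. Of all 10310 probe sets tested, 1912 were called in the same test, in either direction. Each value is the change in muscle minus that in marrow on the log2 scale. Among the members it was 3.51 for Cybb, 2.18 for Ncf1, 1.74 for Ncf4 and 1.43 for the second Cyba probe set. It was 1.86 for Rac2. Among the receptors it was 3.22 for Fpr2, 2.46 for Itgb2, 2.28 for Itgam, 2.00 for Tnfrsf1a, 1.12 for Cd14 and -0.93 for C3ar1. Among the kinases and lipid enzymes it was 1.82 for Plcg2, 1.53 for Fgr and 1.14 for Prkcb. The transcription factors gave 1.98 for Cebpd, 1.27 for Irf8, 1.05 for Cebpb and -3.67 for Meis1. Genes of NADPH supply gave 2.97 for Slc2a3, 2.56 for Slc2a1, 1.52 for Taldo1, 1.33 for Pgd and -2.04 for Idh2, and the peroxidases gave 3.43 for Epx, -1.29 for Prdx4 and -2.14 for Prdx2. The limma adjusted p ranged from 4.3e-07 (Itgam) to 0.0473 (Prkcb). Most of these genes were named because they passed in an SP against MP comparison, so their number is not independent evidence.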

How the results depend on the processing

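The direction of every called member difference held under every alternative run. Calls lost, with their log2 value and limma adjusted p, were as follows. With a floor at the 10th percentile these were Ncf4 in marrow SP against MP (-1.51, 0.0648), Ncf1 between SP groups (-1.14, 0.249) and the tissue difference of Ncf1 (2.81, 0.0740) and Ncf4 (1.28, 0.359), and with one at the 40th, Cybb between SP groups (-0.72, 0.0872). With a pseudocount they were Ncf1 between SP groups (-0.94, 0.101) and the tissue difference of Ncf4 (1.42, 0.104). Without a filter they were the tissue difference of the second Cyba probe set (1.43, 0.0588) and Ncf4 (1.74, 0.0637), by a harsher adjustment over more probe sets. In fits of only the SP groups they were Cybb (-1.55, 0.0610), Cyba (-1.17, 0.0546) and Ncf1 (-1.22, 0.104), with fewer arrays. With the GAPDH covariate Ncf4 in marrow was lost (-1.04, 0.0894), and without the 3 arrays of highest ratio so were Ncf4 in marrow (-0.85, 0.0554) and the tissue difference of the second Cyba probe set (0.92, 0.0784) and Ncf4 (1.22, 0.0619). Median scaling added the tissue difference of Cyba (1.48, 0.0130). Except where the number of probe sets or arrays is given as the reason, the cause was not tested. With each array left out in turn, the tissue difference of the second Cyba probe set was 1.09 to 1.65 and of Ncf4 1.32 to 2.01, and Ncf1 between SP groups was -1.58 to -0.92. Among unequal changes (exact permutation), with no further normalization Cyba against Ncf4 in muscle passed (-0.67, 0.0159) and Cyba against Ncf1 in marrow did not (0.56, 0.254). With a floor at the 10th percentile Cybb against Ncf1 in marrow (-1.24, 0.103) and between MP groups (-1.12, 0.177) and Cybb against Ncf4 between MP groups (1.42, 0.0519) did not pass. With each array left out, Cyba against Ncf1 in marrow was 0.75 to 1.10, Cyba against Ncf4 in muscle -0.62 to -0.39, Cybb against Ncf4 between MP groups 0.91 to 1.22 and Ncf1 against Ncf4 in marrow -0.89 to -0.47. Counts of probe sets called stayed within 1.5 times, and 696 of 792 counts of pathway list members did. The replicate number as a block changed no member's call (Cybb in marrow -3.87), and same-numbered arrays were not paired, since 14 of 30 pairs had a correlation of deviations over 0.1 and 3 of 20 arrays correlated best with their own number in every other group.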

Other observations

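The other marker lists are given by the summed normalized signal of their measured genes. A few bright genes can make up most of such a sum, so a sum alone does not show a cell type. The sum of 14 B lineage markers of 16 was 36945 to 76256 in marrow MP, 6844 to 15751 in marrow SP, 5433 to 8578 in muscle MP and 4216 to 5050 in muscle SP. That of 14 T and NK cell markers of 16 ran otherwise, from 47746 to 94710 in marrow SP against 5352 to 9311 in marrow MP, and from 4596 to 55671 in muscle SP against 1420 to 2085 in muscle MP. In muscle SP the brightest of these was Ccl5, at log2 13.16, and Cd3e and Cd3g were at the floor on every muscle array. The sum of 9 eosinophil and mast cell markers of 13 was 8461 to 14963 in marrow MP and 1563 to 3652 in marrow SP, with 1487 to 9539 in muscle SP and 1522 to 2921 in muscle MP, and no muscle array had Epx, Prg2 or Il5ra above the floor. The sum of 10 blood stem and progenitor markers of 13 was 50372 to 67130 in marrow SP and 18942 to 36795 in marrow MP, with 24752 to 36790 in muscle SP and 26503 to 31935 in muscle MP. In muscle SP the brightest of these were Procr and Cd34, at log2 13.65 and 13.29, while Meis1 was near the floor at 6.83.

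In muscle the 11 endothelial markers of 13 summed to 192779 to 219743 in SP and 144477 to 159904 in MP, the 11 fibroblast markers of 12 to 73158 to 124713 in SP and 200764 to 303574 in MP, and the 11 satellite cell and myogenic markers of 12 to 4568 to 7235 in SP and 14326 to 25005 in MP. In marrow SP and MP the endothelial sums were 9255 to 16121 and 4184 to 4942, the fibroblast sums 2421 to 4135 and 2324 to 3250, and the myogenic sums 1918 to 4836 and 9089 to 14058, with Myf5, Fgfr4 and Calcr at the floor on all marrow arrays.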
